A study of Mus musculus with 10 samples.

Results

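Reg4, Lyz1, Defa24, Ang4, Mmp7, Kit and Itln1 were taken as a set of deep crypt secretory and Paneth-like genes and followed across 10 microarrays of mouse colonic organoids. The set was chosen by gene symbol. Each gene was read from a probe set that the array annotation gives to that symbol alone, and where there were several, the one with the greatest mean value was used. All 7 genes were found, on 8 probe sets, among 18820 genes read in the same way. Itln1 had 2 such probe sets and the others 1 each.

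The organoids were grown from colonic crypts of male mice on a C57BL/6J background. Mice labelled knockout carried loxP sites around exons 1 and 2 of Pparg, the gene of the nuclear receptor PPARγ, together with a Cre recombinase driven by the villin promoter, which is active in intestinal epithelium. The others were their wild-type littermates, and 3 mice of each genotype were used. The ages of the mice are not given in the sources used here. Organoids of both genotypes were embedded in Matrigel in a medium with Wnt, R-spondin, Noggin, mouse EGF, nicotinamide, the TGFβ receptor inhibitor A83 and a p38 kinase inhibitor, and received either 1 µM rosiglitazone, a synthetic PPARγ agonist, or the 0.1% DMSO vehicle for 24 h. The wild-type rosiglitazone group held mice 48, 42 and 47, the wild-type vehicle group mice 42 and 47, the knockout rosiglitazone group mice 46, 45 and 44, and the knockout vehicle group mice 46 and 44. Mice 42, 47, 44 and 46 therefore gave an array under each treatment, and mice 45 and 48 gave a rosiglitazone array only.

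Paneth cells lie at the base of small intestinal crypts and fill their granules with lysozyme, α-defensins, angiogenins and lectins, which act on bacteria in the lumen. The protease Mmp7 cuts mouse pro-α-defensins into their active form. The healthy colon has few or no Paneth cells, and the corresponding place between its stem cells is taken by deep crypt secretory cells, which are marked by Reg4 and the receptor Kit and resemble goblet cells. Both cell types arise from progenitors that switch on the transcription factor Atoh1 when Notch signalling is low, and high Wnt signalling favours the Paneth fate.

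Expression is given as the deposited RMA value of a probe set on a log2 scale, on which a difference of 1 is a factor of 2. Levels of single genes were compared between arrays and not with each other, since probe sets differ in how brightly they bind. For the same reason a summed signal of a marker list, or a level beside the array medians, is a rough guide only. The values ran from 0.73 to 13.55, the array medians lay between 3.54 and 3.72, and pairs of arrays correlated at 0.985 to 0.997 over all probe sets. Precision is set by how few arrays there are. The first principal component (27.4% of the variance) set both arrays of mouse 46 (-31.8 and -39.3) apart from the other 8 (-4.1 to 19.6). Pparg itself, read from a whole-transcript probe set whose position relative to the deleted exons was not checked, lay between 7.37 and 8.78 in the 5 knockout arrays and between 7.59 and 8.41 in the 5 wild-type arrays. It does not check the genotypes, and every genotype statement rests on the labels.

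Reg4, Lyz1, Defa24 and Ang4 varied widely between arrays, and Mmp7, Kit and Itln1 less. The former were at their highest in the rosiglitazone array of knockout mouse 45, by 1.60 to 3.6 on the log2 scale over the next highest array. Kit and Itln1 were also highest there, by smaller margins, whereas Mmp7 was nearly level in 8 arrays and low in both arrays of mouse 46. No gene of the set passed the test in any drug or genotype comparison. The arrays come from bulk organoid RNA, in which a change in the number of cells of a type and a change in RNA per cell cannot be told apart.

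**Figure D1:**
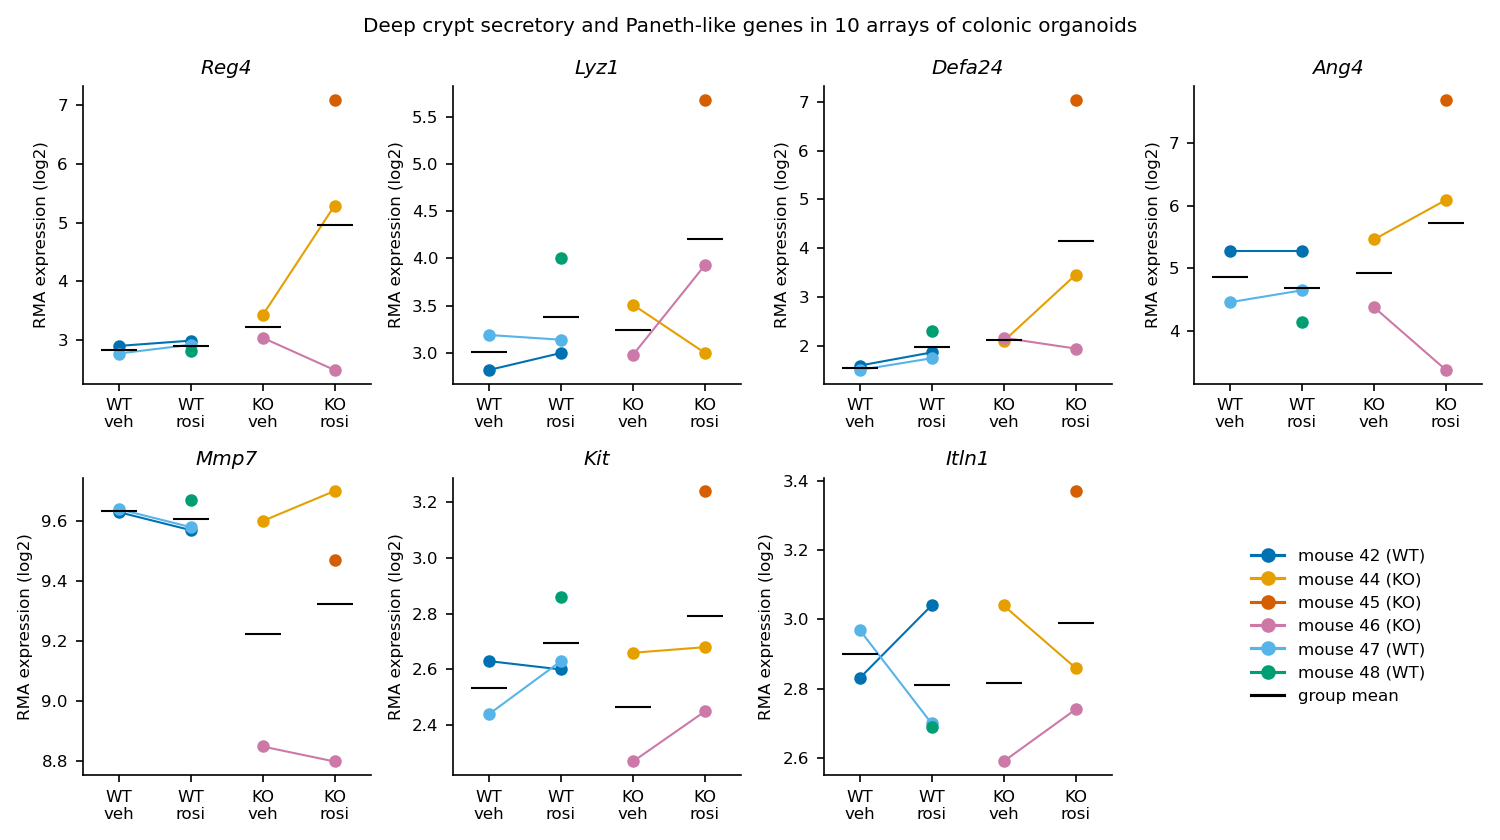
RMA expression (log2, vertical axis, with its own scale in each panel) of the 7 genes in wild-type (WT) and knockout (KO) organoids under vehicle (veh) or rosiglitazone (rosi). Points are arrays coloured by mouse, lines join the 2 arrays of a mouse, and black bars are group means. The array of mouse 45 is the top point in every panel except that of Mmp7, where both arrays of mouse 46 are lowest.

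Reg4 encodes a secreted C-type lectin that marks deep crypt secretory cells of the colon. Its probe set (10494636; gene at chr3:98222138-98236748, GRCm38.p6) read 2.77 and 2.90 in the wild-type vehicle arrays of mice 47 and 42, and 2.81, 2.99 and 2.92 in the wild-type rosiglitazone arrays of mice 48, 42 and 47. In knockout organoids it read 3.04 and 3.42 under vehicle in mice 46 and 44, and 2.49, 7.10 and 5.29 under rosiglitazone in mice 46, 45 and 44. The 5 wild-type values thus lay close together, and the knockout rosiglitazone values ran from the lowest of all 10 to the highest. Every value but those of mice 45 and 44 under rosiglitazone was at or below 3.42, lower than the array medians.

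Itln1 encodes intelectin, a lectin that binds microbial sugars and is made by Paneth and goblet cells. Its higher probe set (10351640; gene at chr1:171518123-171535325) read 2.83 and 2.97 in the wild-type vehicle arrays of mice 42 and 47 and 2.69, 3.04 and 2.70 in the wild-type rosiglitazone arrays of mice 48, 42 and 47. The knockout values were 2.59 and 3.04 under vehicle in mice 46 and 44, and 2.74, 3.37 and 2.86 under rosiglitazone in mice 46, 45 and 44. All groups overlapped. The second Itln1 probe set (10360149) covered a wider range, from 2.08 in the rosiglitazone array of mouse 46 to 4.19 in that of mouse 45, with 3.72 in that of mouse 44. The probe sets shared the highest array but differed in the lowest and in the size of the spread, so the level of Itln1 depends on the probe set read.

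Lyz1 encodes the Paneth cell lysozyme, which digests bacterial cell walls. Its probe set (10372652; gene at chr10:117287795-117292868) read 2.82 and 3.19 in the wild-type vehicle arrays of mice 42 and 47 and 4.0, 3.00 and 3.14 in the wild-type rosiglitazone arrays of mice 48, 42 and 47. The knockout arrays read 2.98 and 3.51 under vehicle in mice 46 and 44, and 3.93, 5.68 and 3.00 under rosiglitazone in mice 46, 45 and 44. The values next below that of mouse 45 were those of wild-type mouse 48 and knockout mouse 46, so the second rank was not tied to a genotype.

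Defa24 encodes an α-defensin, a small peptide that permeabilises bacterial membranes. Its probe set (10570735; gene at chr8:21734494-21735471) read 1.59 and 1.5 in the wild-type vehicle arrays of mice 42 and 47 and 2.29, 1.86 and 1.74 in the wild-type rosiglitazone arrays of mice 48, 42 and 47. In knockout organoids it read 2.16 and 2.09 under vehicle in mice 46 and 44, and 1.94, 7.05 and 3.45 under rosiglitazone in mice 46, 45 and 44. Outside the rosiglitazone arrays of mice 45 and 44, every value was at or below 2.29, lower than the array medians.

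The α-defensin genes are near-identical copies of each other, and their signals may be shared. A further 5 probe sets, with 3 distinct sets of values among them, are annotated to Defa24 together with other defensin genes. All 5 were highest in the array of mouse 45, at 6.01 to 7.43 against 2.67 to 4.52 in the other 9 arrays. Of 10 defensin probe sets with several symbols that do not name Defa24, 9 were also highest there, with gaps of -0.26 to 1.02 to the highest of the other 9 arrays. Which α-defensin transcripts give the Defa24 value cannot be told apart here.

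Ang4 encodes angiogenin 4, a ribonuclease with activity against bacteria that is made by Paneth and goblet cells. Its probe set (10419575; gene at chr14:51763892-51773590) read 5.27 and 4.46 in the wild-type vehicle arrays of mice 42 and 47 and 4.14, 5.27 and 4.65 in the wild-type rosiglitazone arrays of mice 48, 42 and 47. The knockout arrays read 4.38 and 5.46 under vehicle in mice 46 and 44, and 3.38, 7.69 and 6.09 under rosiglitazone in mice 46, 45 and 44. The values followed the mouse more than the treatment: mouse 44 was above mouse 46 under both treatments, and mouse 42 above mouse 47.

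Mmp7, the pro-α-defensin convertase, had a different pattern. Its probe set (10583133; gene at chr9:7692090-7699585) read 9.63 and 9.64 in the wild-type vehicle arrays of mice 42 and 47, and 9.67, 9.57 and 9.58 in the wild-type rosiglitazone arrays of mice 48, 42 and 47. The knockout values were 8.85 and 9.60 under vehicle in mice 46 and 44, and 8.80, 9.47 and 9.70 under rosiglitazone in mice 46, 45 and 44. Both arrays of mouse 46 were below the other 8, a placement that 7.86% of the 18820 genes shared.

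Kit encodes the receptor of stem cell factor and marks deep crypt secretory cells, but also mast cells and the interstitial cells of Cajal. Its probe set (10522530; gene at chr5:75574987-75656722) read 2.63 and 2.44 in the wild-type vehicle arrays of mice 42 and 47 and 2.86, 2.60 and 2.63 in the wild-type rosiglitazone arrays of mice 48, 42 and 47. In knockout organoids it read 2.27 and 2.66 under vehicle in mice 46 and 44, and 2.45, 3.24 and 2.68 under rosiglitazone in mice 46, 45 and 44. All values were below the array medians, and the groups overlapped. Kitl, the gene of its ligand, lay between 8.49 and 8.80.

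The first question was whether rosiglitazone changed these genes in wild-type organoids. None passed the limma test (adjusted p of 1 for each of the 7), and neither did any of the 23099 annotated probe sets (0%; 229 had an unadjusted p below 0.05). The differences were 0.07 (SE 0.94) for Reg4, 0.37 (SE 0.61) for Lyz1, 0.42 (SE 1.06) for Defa24 and -0.18 (SE 0.95) for Ang4 on the log2 scale. Mmp7 (-0.03, SE 0.26), Kit (0.16, SE 0.22) and Itln1 (-0.09, SE 0.21) had the narrower errors. Defa24 was the 1 gene of the set whose treated arrays all lay above the vehicle arrays, as did 8.99% of all genes. None had all treated arrays below, a placement of 6.66% of all genes. In the mice with both treatments, Reg4 differed by 0.09 in mouse 42 and 0.16 in mouse 47 and Defa24 by 0.27 and 0.24.

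In knockout organoids, all 7 differences between rosiglitazone and vehicle were above 0, with a median of 0.80 against -0.02 over all genes, of which 46.0% were above 0. No gene of the set passed the limma test (adjusted p of 1 for each), nor did any probe set (0%; 706 had an unadjusted p below 0.05). The differences were 1.73 for Reg4 (SE 0.94, 95% interval -0.35 to 3.82), 2.02 for Defa24 (SE 1.06), 0.96 for Lyz1 (SE 0.61) and 0.80 for Ang4 (SE 0.95). Those of Mmp7 (0.10, SE 0.26), Kit (0.32, SE 0.22) and Itln1 (0.17, SE 0.21) were smaller. The second Itln1 probe set gave 0.80 (SE 0.49, adjusted p of 1). Every gene's treated and vehicle arrays overlapped, whereas treated arrays were all higher for 5.79% and all lower for 8% of the 18820 genes.

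The sizes of these knockout differences rested on mouse 45, which has no vehicle array. Without it, limma gave 0.66 (SE 0.67) for Reg4, 0.57 (SE 0.39) for Defa24, 0.23 (SE 0.38) for Lyz1 and -0.18 (SE 0.76) for Ang4, each with an adjusted p of 1. Then 5 of the 7 differences were above 0 and 2 below, and their median was 0.10 against 0.00 over all genes, of which 49.0% were above 0. For Reg4, Defa24, Ang4 and Lyz1, the 2 knockout mice with both treatments went opposite ways. In mouse 44, rosiglitazone minus vehicle was 1.87 for Reg4, 1.35 for Defa24 and 0.63 for Ang4, and in mouse 46 it was -0.55, -0.21 and -1.0. Lyz1 went the other way round, with -0.51 in mouse 44 and 0.96 in mouse 46. Kit was higher in both, by 0.01 and 0.18. Mmp7 (0.10 and -0.05) and Itln1 (-0.18 and 0.14) differed in sign by small amounts. Over the 4 mice with both treatments, no gene of the set was higher in all under rosiglitazone (6.6% of all genes) or lower in all (6.79%). Nor did any go one way in both knockout mice and the opposite way in both wild-type mice, as 5.64% of genes did with the knockout mice up and 6.12% with them down. Leaving out the rosiglitazone array of mouse 46 instead raised the Reg4 difference to 2.97 (SE 0.44), with a limma adjusted p of 0.282, and that of Ang4 to 1.97 (adjusted p = 0.901).

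The response in knockout organoids minus that in wild-type organoids was 1.66 for Reg4 (SE 1.33), 1.60 for Defa24 (SE 1.5), 0.98 for Ang4 (SE 1.34) and 0.59 for Lyz1 (SE 0.86). It was 0.26 or less for Itln1, Kit and Mmp7. All 7 had a limma adjusted p of 1, and no probe set passed (0%; 536 had an unadjusted p below 0.05). The difference was smaller than its standard error for Ang4, Lyz1, Itln1, Kit and Mmp7, and larger than it for Reg4 and Defa24.

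Under vehicle, knockout minus wild type was 0.39 for Reg4 (SE 1.03, adjusted p = 0.96), 0.58 for Defa24 (SE 1.16, adjusted p = 0.946) and -0.41 for Mmp7 (SE 0.29, adjusted p = 0.863) in the limma fit. No gene of the set and no probe set passed (0%; 1314 had an unadjusted p below 0.05). Both knockout values were above both wild-type values for Reg4 and Defa24, as for 23.3% of all genes, and below them for Mmp7, as for 16.2%. The Reg4 and Defa24 values under vehicle were all below the array medians. Lyz1 (0.24), Ang4 (0.06), Kit (-0.07) and Itln1 (-0.08) overlapped between the genotypes. For Mmp7 the difference came from mouse 46 at 8.85, while mouse 44 read 9.60 beside 9.63 and 9.64 in the wild type.

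Under rosiglitazone, knockout minus wild type was 2.05 for Reg4 (SE 0.84, 95% interval 0.19 to 3.92, unadjusted p = 0.0339 by limma) and 2.18 for Defa24 (SE 0.95, unadjusted p = 0.0436). Neither passed after adjustment (adjusted p = 0.999 for all 7 genes), in a comparison in which 5 of 23099 probe sets did (0.0216%). Ang4 differed by 1.04 (SE 0.85), Lyz1 by 0.83 (SE 0.55), Mmp7 by -0.28 (SE 0.24), Itln1 by 0.18 (SE 0.19) and Kit by 0.09 (SE 0.20). The second Itln1 probe set differed by 0.67 (SE 0.43, adjusted p = 0.999). Every gene overlapped between the groups, whereas knockout arrays were all higher for 4.23% and all lower for 4.77% of the 18820 genes. Mouse 46 lay within or below the wild-type values for each of the 7 genes. Without mouse 45 the difference was 0.98 for Reg4 (SE 0.61, adjusted p = 0.744) and 0.73 for Defa24 (SE 0.36, adjusted p = 0.686). Without the array of mouse 46 it was 3.29 for Reg4 (SE 0.41, adjusted p = 0.0725). That was the smallest adjusted p of the set under any setting.

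**Figure D2:**
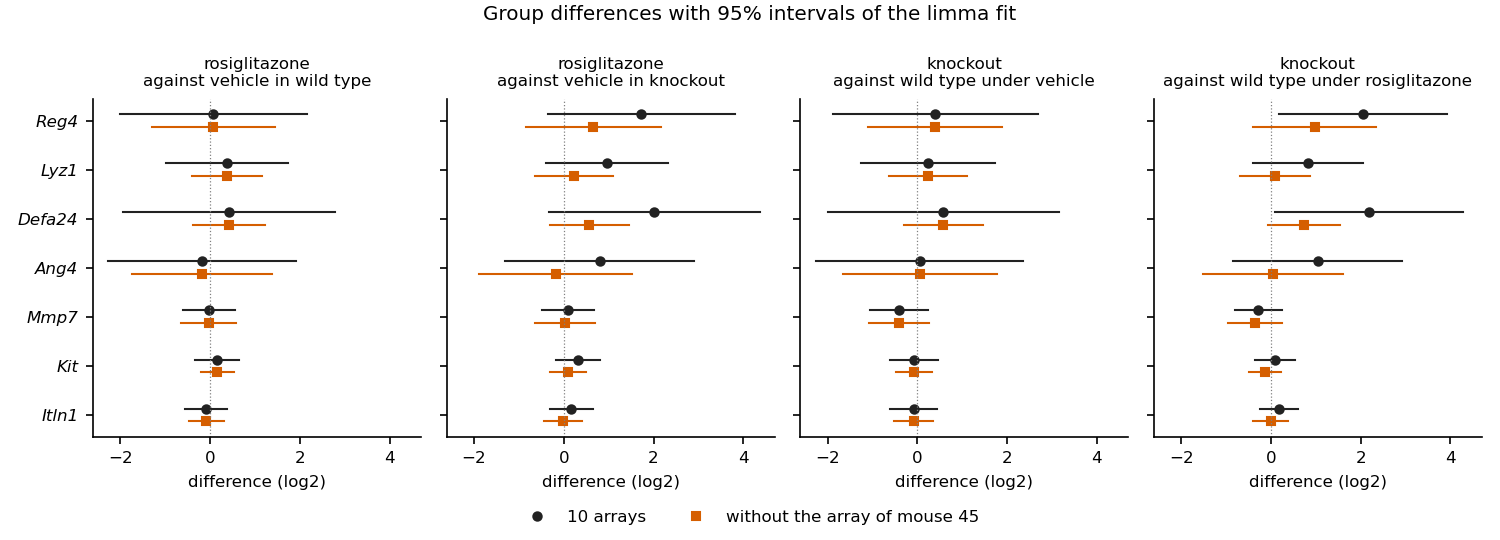
Differences between groups for the 7 genes (horizontal axis, log2 scale) in the 4 pairwise comparisons, with 95% intervals of the limma fit. Black circles use all 10 arrays and orange squares leave out the rosiglitazone array of mouse 45. Without that array the Reg4 difference between genotypes under rosiglitazone moved from 2.05 to 0.98, and the intervals of Reg4, Lyz1, Defa24 and Ang4 narrowed.

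The spread over the arrays was also described. Over the 10 arrays Defa24 had a standard deviation of 1.66, the 12th largest of 18820 genes, although 8 of its values were at the low end of the scale. Reg4 (SD 1.46) ranked 17th, Ang4 (SD 1.20) 47th and Lyz1 (SD 0.86) 125th. Mmp7 (SD 0.33), Kit (SD 0.26) and Itln1 (SD 0.23) ranked 1809th, 4019th and 6012th. With the array of mouse 45 left out, Reg4 ranked 116th (SD 0.83), Ang4 124th (SD 0.82), Defa24 347th (SD 0.58) and Lyz1 774th (SD 0.43), Kit 11223rd (SD 0.17) and Itln1 11995th (SD 0.16). Reg4 and Ang4 then stood in the top 0.616% and 0.659% of genes by spread.

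The spread between mice was set beside that between the arrays of a mouse. The standard deviation over the 6 mouse means was 1.73 for Reg4, 2.06 for Defa24, 1.40 for Ang4 and 1.02 for Lyz1. The standard deviation within the 4 mice with both treatments was 0.69, 0.50, 0.42 and 0.39. For Mmp7 the values were 0.32 between mice and 0.05 within, for Kit 0.30 and 0.09, and for Itln1 0.26 and 0.15. The within-mouse value includes the treatment. Without mouse 45, which has no pair, the standard deviation over 5 mouse means was 0.68 for Reg4, 0.46 for Defa24 and 0.41 for Lyz1, close to the within-mouse values. It was 0.79 for Ang4 and 0.36 for Mmp7, above them, and 0.18 for Kit and 0.13 for Itln1. The larger spread between mice of Reg4, Defa24 and Lyz1 thus rested on mouse 45.

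The array of mouse 45 was the highest of the 10 for 6 of the 7 genes, against 11.6% of the 18820 genes. For Defa24 its lead over the next array was 3.6, the largest of all genes, for Reg4 1.82 (14th), for Lyz1 1.68 (16th) and for Ang4 1.60 (18th). A lead over 1 was found for 38 genes, or 0.202%, and 4 of these were in the set. A lead over 2 was found for 11 genes, or 0.0584%, of which Defa24 was 1. Kit led by 0.38 (201st) and Itln1 by 0.32 (275th). Mmp7 in this array was 0.23 below the highest of the other arrays. The set was chosen with earlier results of these arrays known, so these ranks describe the array and carry no test.

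**Figure D3:**
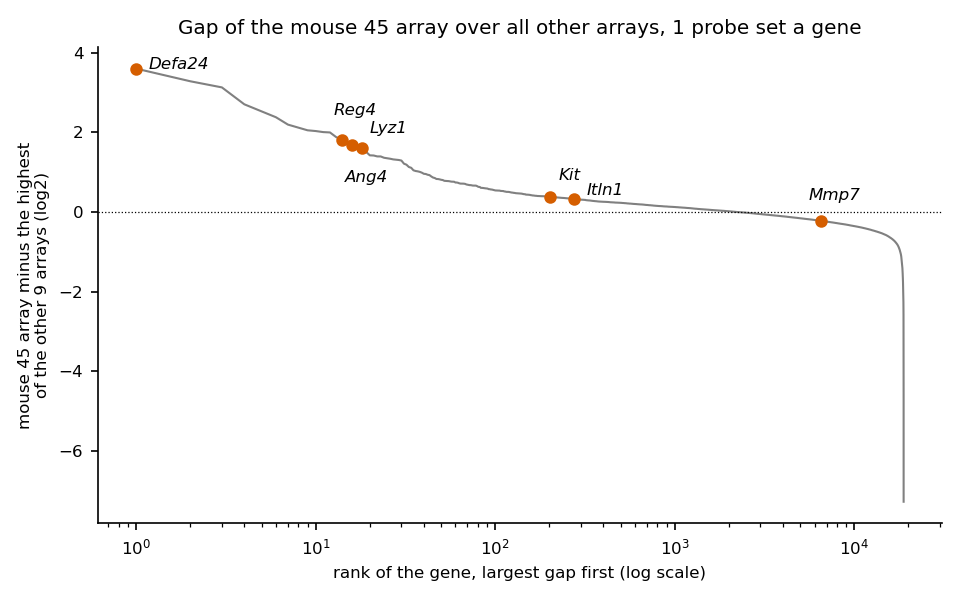
Value of each gene in the array of mouse 45 minus the highest of the other 9 arrays (log2, vertical axis), for 18820 genes ordered from the largest gap (horizontal axis, log scale). Orange points are the 7 genes: Defa24 has the largest gap of all, Reg4, Lyz1 and Ang4 lie at ranks 14 to 18, and Mmp7 lies below 0.

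The genes with the other leads of that size were looked up after their values were seen. They included Retnlb, a goblet cell resistin-like protein (7.01 against at most 3.72 elsewhere), Spink4, a goblet cell protease inhibitor, Reg3g, an antibacterial lectin (5.90), and Muc2, Tff3, Zg16 and Clca1 of the goblet cell mucus. Sis, the brush border sucrase-isomaltase of the small intestine, read 6.32 there against at most 3.19 elsewhere, and the oxidase gene Nox1 read 4.98 against at most 2.60. Others of the 38, such as Tm4sf5, Ugt2b35, Prelp and Sp110, belong to no list used here. Mouse 45 has this 1 array, so mouse, treatment and array cannot be told apart in it.

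Reg4, Lyz1, Defa24 and Ang4 share the pattern of a high array in mouse 45, and Mmp7 does not. Their promoter sequences are shown to set this shared pattern beside the letters in front of each start site. RefSeq promoters (GRCm38.p6) were held for 6 of the 7 genes, all but Defa24. The 250 bases before each start were searched on both strands. The printed stretch is shorter where a start lies inside the annotated gene, as for Reg4. The first pattern was the E-box CANNTG, the 6 letters bound by basic helix-loop-helix factors such as Atoh1. CAGCTG was searched as an E-box of the Atoh1 type, and so is always also a CANNTG match. CTTTGA (TCF/LEF factors of the Wnt pathway), AGGTCA (a nuclear receptor element) and TTTATNG (CDX factors) were searched too. The last was the PPAR DR1 element, AGGTCA, any base and AGGTCA again, which PPARγ and RXR bind and which holds the shorter element. Capitals mark every match in the sequences below, which run 5′ to 3′ on the strand of the gene.
Reg4 (chr3:98221906-98222137, plus strand): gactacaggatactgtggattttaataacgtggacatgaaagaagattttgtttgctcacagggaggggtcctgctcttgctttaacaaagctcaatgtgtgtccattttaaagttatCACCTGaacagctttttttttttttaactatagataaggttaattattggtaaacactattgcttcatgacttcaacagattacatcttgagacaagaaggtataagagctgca
Lyz1 (chr10:117292869-117293118, minus strand): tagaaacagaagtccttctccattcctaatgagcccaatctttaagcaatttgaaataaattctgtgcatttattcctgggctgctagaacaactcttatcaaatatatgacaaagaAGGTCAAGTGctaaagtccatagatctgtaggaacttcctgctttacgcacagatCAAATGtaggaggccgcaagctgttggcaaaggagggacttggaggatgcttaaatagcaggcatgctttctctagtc
Ang4 (chr14:51773591-51773840, minus strand): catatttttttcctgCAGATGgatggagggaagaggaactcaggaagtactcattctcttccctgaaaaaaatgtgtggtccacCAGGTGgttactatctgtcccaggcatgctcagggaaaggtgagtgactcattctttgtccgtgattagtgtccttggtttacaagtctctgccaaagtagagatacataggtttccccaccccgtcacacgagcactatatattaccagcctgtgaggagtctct
Mmp7 (chr9:7691840-7692089, plus strand): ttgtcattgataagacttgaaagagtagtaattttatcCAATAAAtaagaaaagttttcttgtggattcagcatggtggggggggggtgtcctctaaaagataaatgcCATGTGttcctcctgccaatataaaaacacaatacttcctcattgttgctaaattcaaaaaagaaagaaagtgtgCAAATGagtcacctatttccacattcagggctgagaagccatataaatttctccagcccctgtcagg

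CANNTG was found in Reg4, Lyz1, Ang4, Mmp7 and Itln1, and in 66.2% of the 32851 promoters of the table. In Lyz1 the element AGGTCA (14% of promoters) overlaps 1 of its E-boxes, as the longer capital run shows. TTTATNG (9.81% of promoters) was found on the minus strand of Mmp7 and in Itln1. Both Itln1 matches, which begin at -8 (CANNTG) and -30 (TTTATNG) from the start, lie inside the annotated gene. CTTTGA (13.8%) was found in another promoter of Mmp7 that is not printed. CAGCTG (13%) and the PPAR DR1 element (0.0335%) were in none of the promoters of the set. The E-box was found in Reg4, Lyz1 and Ang4 and in Mmp7 alike, and a match is a description of letters only.

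How far the genes moved together was described by Pearson correlations over the 10 arrays, which come from 6 mice and share normalisation. Reg4 and Defa24 correlated at 0.95, Reg4 and Ang4 at 0.91, and Defa24 and Ang4 at 0.82. Without the array of mouse 45 these values were 0.89, 0.76 and 0.45. Lyz1 correlated with Defa24 at 0.84 over 10 arrays and at 0.02 without that array, and with Reg4 at 0.66 and -0.33. Over the 9 other arrays Reg4 stayed close to Ang4 and Defa24, and Lyz1 did not follow them. The highest of those 9 arrays for Reg4 (5.29), Defa24 (3.45) and Ang4 (6.09) was the rosiglitazone array of mouse 44. In the rest Defa24 was at or below 2.29, so the value of 0.89 leans on that array.

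The 5 genes most like each member were taken from the 9410 genes with a mean above the median of 4.54. For Reg4 they were Spink4 (0.952), Ang4 (0.910), Tff3 (0.907), Zfp317 (0.905) and Ahctf1 (0.898), and for Ang4 they were Spink4 (0.962), Muc2 (0.953), Tff3 (0.945), Nit2 (0.939) and Camk1d (0.925). Without mouse 45, Spink4 still correlated with Reg4 at 0.825 and with Ang4 at 0.925, and Muc2 with Ang4 at 0.893. Spink4, Muc2 and Tff3 are secreted products of goblet cells. Defa24 was most like Rangrf (0.918), Spink4 (0.916), Drg2 (0.906), Kyat3 (0.901) and Ggcx (0.886), but the correlation with Rangrf was 0.076 without mouse 45.

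Lyz1 was most like Tmem176a (0.937, and 0.753 without mouse 45), Tbc1d4 (0.907), Tdp1 (0.900), Amot (0.891) and Ggcx (0.888). For Mmp7 the nearest genes were Krt4 (0.976), Qk (0.972), Adcyap1 (0.970), Mettl15 (0.968) and Nectin4 (0.965). Without both arrays of mouse 46 the first of these fell to 0.646, so that likeness rested largely on that mouse. Kit was nearest to Ankrd52 (0.978), Mfsd10 (0.957), Nol11 (0.950), Urb1 (0.942) and Otud4 (0.932), and Itln1 to Cox10 (0.959), Cluh (0.927), Samm50 (0.926), Cmss1 (0.926) and Ncl (0.925). All values of these Kit and Itln1 probe sets were below the array medians. None of the goblet or Paneth products was among the nearest genes of Mmp7, Kit or Itln1. Reg4 (mean 3.57), Lyz1 (3.52) and Defa24 (2.57) could not appear there, since their means lay below the limit for candidates. For Paneth products the absence thus tells little. Ang4 and Itln1 correlated at 0.80 over the 10 arrays and at 0.54 without mouse 45.

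The other genes of these cells were read from lists of known markers. No gene of any list passed the limma test in any comparison. Of 28 other Paneth cell granule and secreted proteins 12 had a probe set of their own, and under rosiglitazone against vehicle 8 were higher and 4 lower in knockout organoids (median 0.12; 0.04 without mouse 45), with 7 higher and 5 lower in wild-type organoids (median 0.13). Over all genes, 46% were higher in knockout and 54.8% in wild-type organoids. Of the 12, 4 were highest in mouse 45, against 11.6% of all genes. These were Reg3g (2.68 to 5.90), its relative Reg3b (2.17 to 4.32), the phospholipase Pla2g2a (2.49 to 3.90) and Lyz2 (1.51 to 2.28). Lyz2, a lysozyme gene of macrophages, was at the low end of the scale. The lipase cofactor Clps (3.31 to 4.53) and the lipase Pnliprp2 (2.85 to 4.95) peaked in wild-type rosiglitazone arrays. The array of mouse 45 was thus not high in all Paneth products.

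Of 16 goblet cell secreted proteins 13 were measured and 10 were highest in mouse 45, 6 of them by over 1. The share of all genes highest there was 11.6%. In knockout organoids 12 were higher and 1 lower under rosiglitazone (median 0.56), against 3 higher and 10 lower in wild-type organoids (median -0.18), with none passing. The shares of all genes that were higher were 46% in knockout and 54.8% in wild-type organoids. Without mouse 45 the knockout count was 11 higher and 2 lower, where 49.0% of all genes were higher, and the median fell to 0.19. The 2 remaining knockout mice differed. From vehicle to rosiglitazone the mean log2 level of the list went from 4.32 to 4.76 in mouse 44 and from 3.64 to 3.58 in mouse 46. Zg16, a lectin of the mucus layer, ranged from 4.67 to 8.90, Clca1, a mucus metalloprotease, from 3.63 to 9.26, and Tff3, a trefoil peptide, from 3.93 to 8.44, each highest in mouse 45. Gcnt3, a mucin glycosyltransferase, was lowest there (7.18 to 8.39). The ranges of Zg16, Clca1 and Tff3 end at the array of mouse 45, so their width and their height there are not separate findings.

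All 14 transcription factors of secretory and Paneth fate were measured, and 7 were highest in mouse 45 (11.6% of all genes), none of them by over 1. Atoh1 ranged from 2.06 in the vehicle array of mouse 46 to 4.04 in mouse 45, and Spdef, which acts in goblet and Paneth maturation, from 3.03 to 4.12 between the same arrays. Sox9, which is needed for Paneth cells, lay between 9.15 and 10.13, Xbp1, a factor of secretory load, between 8.84 and 9.37, and Foxa1 between 7.63 and 8.64. Under rosiglitazone against vehicle 9 were higher and 5 lower in knockout organoids (median 0.06) and 5 higher and 9 lower in wild-type organoids (median -0.02). Of all genes, 46% and 54.8% were higher. Without mouse 45 the knockout count turned to 5 higher and 9 lower (median -0.06), where 49.0% of all genes were higher.

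Of 12 niche ligands and surface proteins of these cells 11 were measured. Under rosiglitazone against vehicle 1 was higher and 10 lower in wild-type organoids (median -0.08), and 6 were higher and 5 lower in knockout organoids (median 0.06; -0.02 without mouse 45). Of all genes, 54.8% were higher in wild-type and 46% in knockout organoids. The growth factor gene Tgfa lay between 6.73 and 7.31, the receptor Ephb3 between 6.31 and 7.14 and the surface protein Cd24a between 7.86 and 9.46. Agr2, a disulfide isomerase needed for mucin folding, ranged from 3.42 in the vehicle array of mouse 46 to 8.85 in mouse 45. It was the 1 gene of this list that led there by over 1.

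**Figure D4:**
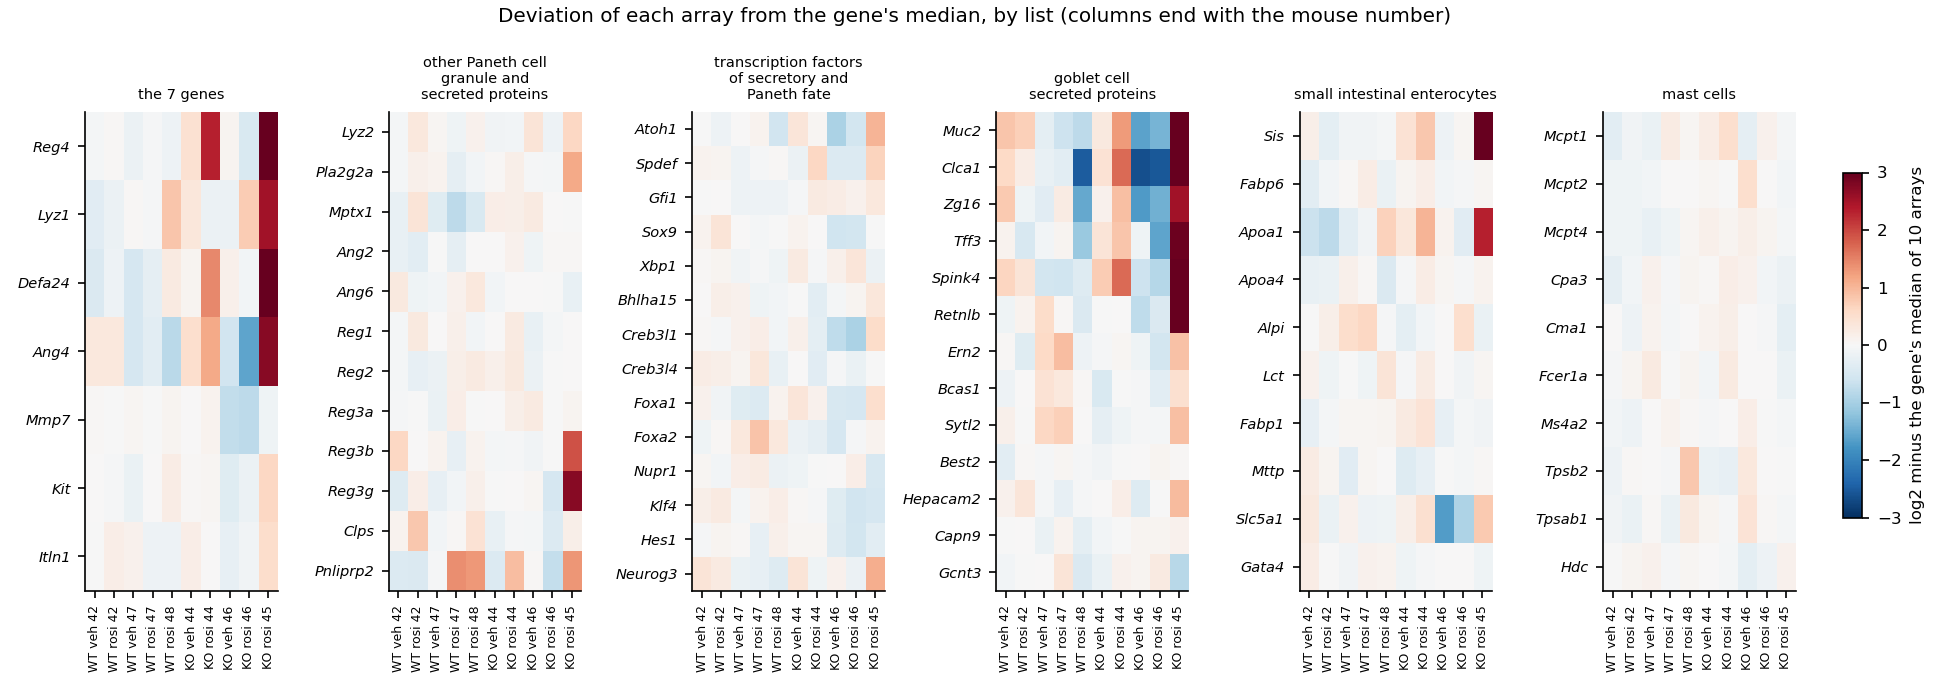
Deviation of each array from the gene's median over 10 arrays (colour, log2, red above and blue below, with the scale ending at -3 and 3) for the 7 genes and 5 marker lists. Columns are arrays labelled by genotype, treatment and mouse. The column of mouse 45 at the right of each panel is red for most goblet products and for Reg4, Lyz1, Defa24 and Ang4, and pale for the mast cell genes.

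Markers of other cells were read beside these results. The 10 epithelial genes had a mean level between 10.02 and 10.31 in every array, and Car1, a carbonic anhydrase of colonocytes, lay between 10.77 and 11.92. Mast cell proteases were at the low end of the scale, with Mcpt1 between 1.74 and 2.57, Mcpt2 between 1.64 and 2.29 and Cpa3 between 1.75 and 2.22. The summed signal of the 10 mast cell genes was 43.63 to 48.61 in the knockout rosiglitazone arrays, 46.89 to 49.43 under knockout vehicle, 43.9 to 51.95 under wild-type rosiglitazone and 42.44 to 47.16 under wild-type vehicle. None of the 10 was highest in mouse 45, where Kit was. Among markers of the interstitial cells of Cajal, Etv1 lay between 5.17 and 6.25 and Ano1, which epithelium can also make, between 7.99 and 8.69. The summed signal of the 4 measured genes of that list was 394.4 to 483.4 under knockout rosiglitazone, 319.8 to 421.4 under knockout vehicle, 332.4 to 379.7 under wild-type rosiglitazone and 347.1 to 356.8 under wild-type vehicle. Under rosiglitazone the knockout range of this sum, most of which came from Ano1, lay above the wild-type range. The mean log2 level of the list overlapped, at 5.14 to 5.26 in knockout and 4.95 to 5.21 in wild-type organoids. Ano1 (0.31) and Thbs4 (0.53) were higher and Gja1 (-0.43) lower in the knockout at an unadjusted p below 0.05 by limma. None passed after adjustment (0.88 or more). The part of this in the Kit values was not tested.

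Macrophages make lysozyme from Lyz2, which lay between 1.51 and 2.28 and was highest, like Lyz1, in mouse 45. Their complement gene C1qa lay between 2.63 and 3.20 and their receptor Csf1r between 2.49 and 2.95. None of the 11 genes of the leukocyte list, which does not hold Lyz2, was highest in mouse 45. The summed signal of those 11 genes was 180.6 to 277.5 under knockout rosiglitazone, 221.2 to 275.7 under knockout vehicle, 297.3 to 394.9 under wild-type rosiglitazone and 389.8 to 404.2 under wild-type vehicle. The knockout ranges of this sum, most of which came from Cd68, lay below the wild-type ranges. Cd68, a lysosomal protein on the list, lay between 6.96 and 8.45. The mean log2 level of the list overlapped under rosiglitazone, at 2.88 to 3.06 in knockout and 2.90 to 3.01 in wild-type organoids. Under vehicle it was 2.88 in the knockout arrays and 2.95 to 3.00 in the wild-type arrays. The part of this in the results was not tested. Of 10 small intestinal enterocyte genes, 3 were highest in mouse 45, among them Sis and the apolipoprotein Apoa1 (5.77 against at most 4.45 elsewhere), and the other 7 were not.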

How the data were processed

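RNA of 10 organoid cultures was hybridised to Affymetrix whole-transcript arrays. The authors deposited RMA values on a log2 scale, per the submitters' processing notes. The RMA version and chip definition are not given in the sources used here. The table holds 35556 probe sets, of which the 23099 with a platform annotation were tested. Groups were compared with limma 3.58.1 (R 4.3.3) in a fit with a mean per group over all 10 arrays (6 residual degrees of freedom) and 5 contrasts, with two-sided tests, Benjamini-Hochberg adjustment over all tested probe sets and a threshold of 0.05. Per the labels, same-numbered mice gave 2 arrays. The differences between 2 such mice correlated across treatments at 0.440 for wild-type mice 42 and 47 and at 0.487 for knockout mice 46 and 44. The donor mouse was therefore also fitted as a random block (statmod 1.5.0) and as a fixed block. With 3 arrays against 2, an exact permutation test cannot reach the threshold. The named genes are the 7 members, the 5 genes most correlated with each, the 4 highest genes of each marker list and defining markers. Genes named for their lead in mouse 45, and Atoh1, Spdef, Agr2, Reg3b and Apoa1, were chosen after their values were seen. The members and lists were chosen with earlier results of these data known. The fit was tested on simulated data.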

Additional observations from a re-analysis of the deposited data

How the results depend on the processing

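Over 18 other settings, 529 of 561 values of the 7 genes kept their direction, 32 reversed, and none passed the threshold. With the donor mouse as a fixed replicate block, Reg4 under rosiglitazone against vehicle in knockout was 0.66 (adjusted p = 0.798 by limma). Ang4 became 0.09 in wild type, -0.18 in knockout and -0.28 for the difference of responses, and Itln1 -0.02 in knockout. The same 4 values came from the mice with both treatments alone. There, knockout minus wild type under rosiglitazone was -0.22 for Ang4, -0.05 for Kit and -0.08 for Itln1. As a random block the mouse gave 1.26 for Reg4 in knockout (adjusted p = 0.799) and 0.03 for Itln1 between genotypes under vehicle. Leaving out each array in turn turned the sign of Ang4 (-0.58 to 0.22 in wild type, -0.18 to 1.97 in knockout, -0.49 to 0.60 between genotypes under vehicle), Itln1 (-0.05 to 0.39 in knockout, -0.30 to 0.14 under vehicle, -0.01 to 0.30 under rosiglitazone), Kit (-0.26 to 0.13 and -0.13 to 0.26 between genotypes, -0.07 to 0.36 for the responses), Lyz1 (-0.03 to 0.50 under vehicle, -0.15 to 1.19 for the responses) and Mmp7 (-0.27 to 0.47 in knockout, -0.25 to 0.50 for the responses). Counts of called probe sets were 0 in the first 4 comparisons and 5 between genotypes under rosiglitazone. The random block gave 1 in knockout and 1 under vehicle. Centring, repeated quantile normalisation and bright probe sets each gave 1 under vehicle. Under rosiglitazone the count was 1 after repeated quantile normalisation and 12 with array weights. Mice with both treatments gave 6 under vehicle and 16 under rosiglitazone. Leaving out arrays gave 0 to 6 and 1 to 23. The cause was not tested.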

Other observations

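Other lineages were placed beside the array of mouse 45, in which 11.6% of all genes were highest. Of 12 enteroendocrine genes, 8 were highest there, none of them by over 1. The array's difference from each gene's median over the other arrays had a median of 0.45 on the log2 scale. Of 12 Wnt target and stem cell genes, 5 were highest there and 5 were lowest in both arrays of mouse 46. Lgr5, the stem cell receptor, lay between 8.65 in the rosiglitazone array of mouse 46 and 9.57 in that of mouse 45, and Slc12a2, a crypt chloride transporter, between 8.64 and 10.02 in the same arrays. Rnf43, a Wnt feedback ligase, lay between 9.55 and 9.97. Of 8 tuft cell genes 2, and of 12 colonocyte genes 3, were highest in mouse 45.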
